A study of Mus musculus with 20 samples.

Results

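The 10 immediate early genes described here were Fos, Fosb, Jun, Junb, Atf3, Egr1, Egr2, Ier2, Ier3 and Dusp1. They were taken as a named set and read through every probe that the array's annotation assigned to those symbols, which gave 11 probes of 45281 on the array, and 10 genes of the 19057 that had a probe of their own. The study compared mouse cells of 3 genotypes at Mysm1, which encodes a histone H2A deubiquitinase: wild type (wt), Mysm1+/tm1a heterozygous (het) and Mysm1tm1a/tm1a homozygous (hom), all on C57BL/6. The allele, Mysm1tm1a(KOMP)WTSI, is a knockout-first gene trap that acts without Cre. Total RNA of 4 wt, 4 het and 3 hom cultures of mouse embryonic fibroblasts (MEF), and of 3 embryonic stem cell (ESC) cultures per genotype, was hybridized to 20 Illumina bead arrays. MEF of a group came from different animals. ESC of a genotype were separate passages, so that their spread may be that of culture rather than of independent lines. No stimulus is named for any culture.

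Immediate early genes are transcribed within minutes of a growth factor, stress or adhesion signal, with no new protein needed, and their messages are short-lived. Serum response factor with Elk cofactors, acting at CArG boxes, and CREB or ATF proteins, acting at cyclic AMP response elements, are their main activators. Fos and Jun family proteins pair to form AP-1, Egr proteins bind GC-rich sites, and the phosphatase Dusp1 shuts off the kinases that switched the genes on. Fibroblasts are a classical system for this response.

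The arrays were checked first. Between 28.5% and 31.8% of probes per array were above background (detection p below 0.01), with means of 42.5 to 45.5 beads per probe. Raw signals had a median between 53.2 and 59.9 on each of 19 arrays, and MEF hom 3 was brighter, at 95.7. Every pair of arrays of one group differed by more than their bead error, and the closest pair was MEF hom 1 and hom 2. The labels of the ESC also carry the abbreviation MSCs. All 7 naive ESC markers were detected on every ESC array and 0 to 1 on each MEF array, where 6 of 7 fibroblast markers were detected and Postn was not. The responsive Mysm1 probe read 7.0 to 7.54 in MEF wt, 6.40 to 6.75 in het and 4.99 to 5.44 in hom (log2 intensity). In ESC it read 7.48 to 7.69 in wt, but 4.45 in the library labelled het 1 and 6.47 in the library labelled hom 1, against 6.67 to 6.69 in the other het and 4.81 to 5.42 in the other hom libraries. These 2 libraries go against the order of their labels, so ESC values are also given without them where they change a call. The 20 arrays lay on 5 slides: MEF wt 1 to 3 and het 1 to 3 on slide 1, ESC wt 1 to 3 and het 1 on slide 2, the other ESC arrays and MEF wt 4 on slide 3, MEF het 4, hom 1 and hom 2 on slide 4, and MEF hom 3 on slide 5.

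Promoter sequence, the 250 bases before the annotated start site in RefSeq (GRCm38.p6), is shown for 4 members whose levels ran together or apart over the arrays: Fos against Jun, Egr2 and Dusp1. Capitals mark a cyclic AMP response element core (TGACGT on either strand), a TATA box (TATAAA on the gene's strand) or a CArG box (either strand). The windows are Fos at chr12:85473640-85473889 on the plus strand, Jun at chr4:95052223-95052472 on the minus strand, Egr2 at chr10:67537619-67537868 on the plus strand (1 of 5 annotated starts) and Dusp1 at chr17:26508473-26508722 on the minus strand.
Fos: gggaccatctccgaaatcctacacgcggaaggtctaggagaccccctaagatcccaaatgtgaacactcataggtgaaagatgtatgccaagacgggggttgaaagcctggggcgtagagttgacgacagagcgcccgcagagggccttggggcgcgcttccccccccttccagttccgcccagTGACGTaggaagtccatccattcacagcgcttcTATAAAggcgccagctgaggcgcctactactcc
Jun: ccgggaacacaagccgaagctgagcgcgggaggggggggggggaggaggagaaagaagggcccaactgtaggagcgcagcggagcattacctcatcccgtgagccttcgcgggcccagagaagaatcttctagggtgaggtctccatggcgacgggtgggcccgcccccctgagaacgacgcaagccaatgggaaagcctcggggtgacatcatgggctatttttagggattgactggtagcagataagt
Egr2: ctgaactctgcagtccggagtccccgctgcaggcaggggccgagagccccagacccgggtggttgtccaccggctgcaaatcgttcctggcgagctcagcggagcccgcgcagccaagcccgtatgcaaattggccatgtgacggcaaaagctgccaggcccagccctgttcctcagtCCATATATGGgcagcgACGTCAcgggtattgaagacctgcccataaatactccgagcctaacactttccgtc
Dusp1: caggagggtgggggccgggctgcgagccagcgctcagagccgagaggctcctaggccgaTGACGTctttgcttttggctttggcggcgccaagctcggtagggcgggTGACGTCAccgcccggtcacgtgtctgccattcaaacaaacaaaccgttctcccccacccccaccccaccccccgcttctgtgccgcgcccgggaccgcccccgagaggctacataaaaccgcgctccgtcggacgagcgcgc
Fos carried the response element core 66 bases and the TATA box 33 bases before its start. Egr2 carried a CArG box 72 bases and a response element core 56 bases before this start, and Dusp1 carried cores 191 and 143 bases before its start, the nearer one read on both strands. The Jun window held none of these letters, and none of the 4 windows held the AP-1 motif TGANTCA on either strand. Only exact letters were searched, so a near match such as tgacatca in the Jun window was not counted, nor was any site further upstream. For scale, among 32851 annotated promoter windows of 250 bases before to 50 after a start, 7.51% held the response element core, 8.32% the TATA box, 1.63% a CArG box and 7.81% the AP-1 motif. Of the 10 members, 8 had a window that was searched. Of those not shown, Atf3 held a response element core 8 bases before its start and Junb a TATA box from base 1 after its start. Fosb and Ier3 held none of these motifs. Of the other Egr2 windows, that from chr10:67535249 held none and that from chr10:67537316 a CArG box but no core.

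Values are log2 intensities after background correction and quantile normalization within each cell type, unless said otherwise, and differences are between such values. A gene counted as tested where its probe was above background on at least 3 arrays: 9 members in MEF and 6 in ESC (Fos, Jun, Junb, Egr1, Ier3 and Dusp1). Ier2, a nuclear early response protein, was above background on 0 of 20 arrays, as was the second Junb probe. These were bulk cultures, so fewer cells with a message and less message per cell cannot be told apart.

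Fos, the AP-1 subunit that must pair with a Jun protein, was above background on all 11 MEF arrays and on 7 of 9 ESC arrays. In MEF it read 9.14, 7.38, 7.32 and 8.83 in wt 1 to 4, then 8.70, 8.68, 8.04 and 7.76 in het 1 to 4, and 8.92, 9.0 and 7.90 in hom 1 to 3. The highest and the lowest array were both wild type, a 3.53-fold range, and the 3 genotypes overlapped. In ESC Fos read 5.16, 5.75 and 4.64 in wt 1 to 3, then 4.76, 5.87 and 5.09 in het, and 5.34, 5.72 and 5.02 in hom. Replicate 2 was the highest of each genotype, and wt 3 and het 1 were not above background. Fosb, a Fos relative that also pairs with Jun proteins, was dim: above background on 7 of 11 MEF arrays, at 4.66 to 5.95, and on none of the 9 ESC arrays.

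Jun, which forms AP-1 alone or with Fos, ran the other way in MEF. It read 6.94, 8.15, 7.82 and 7.49 in wt, 7.56, 7.24, 8.34 and 7.81 in het, and 6.97, 7.03 and 7.76 in hom. The 5 highest arrays for Jun (wt 2, wt 3, het 3, het 4 and hom 3) were the 5 lowest for Fos. In ESC Jun read 5.01, 5.82 and 4.76 in wt, 5.34, 6.40 and 5.29 in het, and 5.07, 5.90 and 5.05 in hom, again with replicate 2 on top in each genotype. Jun was above background on 8 of 9 ESC arrays, and on 2 of 3 in wt. Junb, a Jun relative that tempers Jun's activity, read 7.93, 9.17, 9.06 and 8.81 in MEF wt, 8.91, 7.89, 10.15 and 9.42 in het, and 7.75, 7.78 and 8.77 in hom. Its range was 5.26-fold, with het 3 on top and hom 1 lowest, and the genotypes overlapped. In ESC Junb stayed within 6.39 to 7.40. Atf3, a stress-induced partner of Jun, was above background on 7 MEF arrays and on 1 ESC array (het 2), with a MEF range of 4.56 to 6.44 that also peaked in het 3.

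Egr1, a zinc finger factor and textbook read-out of growth factor signalling, was bright on all MEF arrays. It read 11.35, 11.88, 11.78 and 11.24 in wt, 11.30, 11.29, 11.96 and 12.15 in het, and 11.19, 11.27 and 11.85 in hom, a 1.94-fold range. In ESC it read 9.19, 9.96 and 7.88 in wt, 8.91, 10.08 and 7.52 in het, and 9.02, 9.23 and 8.06 in hom. That 5.90-fold range followed the replicate number, with replicate 3 the lowest of each genotype, and its SD was larger than that of 98.9% of the genes tested in ESC. Egr2, a relative known for myelin and hindbrain development, read 7.11, 7.89, 8.15 and 7.18 in MEF wt, 6.83 to 8.56 in het and 6.63 to 8.34 in hom. In ESC it was above background only in het 2 (5.55) and hom 2 (5.28).

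Ier3, a stress-inducible regulator of cell survival, had the widest MEF range of the members. It read 9.78, 12.14, 12.10 and 11.04 in wt, 11.15, 9.92, 11.71 and 11.92 in het, and 9.76, 9.70 and 11.23 in hom, and its SD over MEF exceeded that of 97.4% of genes. The range was 5.43-fold, from hom 2 to wt 2, and hom 1, hom 2, wt 1 and het 2 formed its lower end. In ESC Ier3 stayed within 8.35 to 9.28. Dusp1, the nuclear phosphatase that inactivates mitogen-activated kinases, read 9.47, 10.67, 10.84 and 9.82 in MEF wt, 9.79, 9.13, 10.87 and 10.69 in het, and 9.65, 9.56 and 10.48 in hom. In ESC it lay between 10.04 and 10.47 on all 9 arrays, an SD of 0.14, less than that of most genes.

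**Figure D1:**
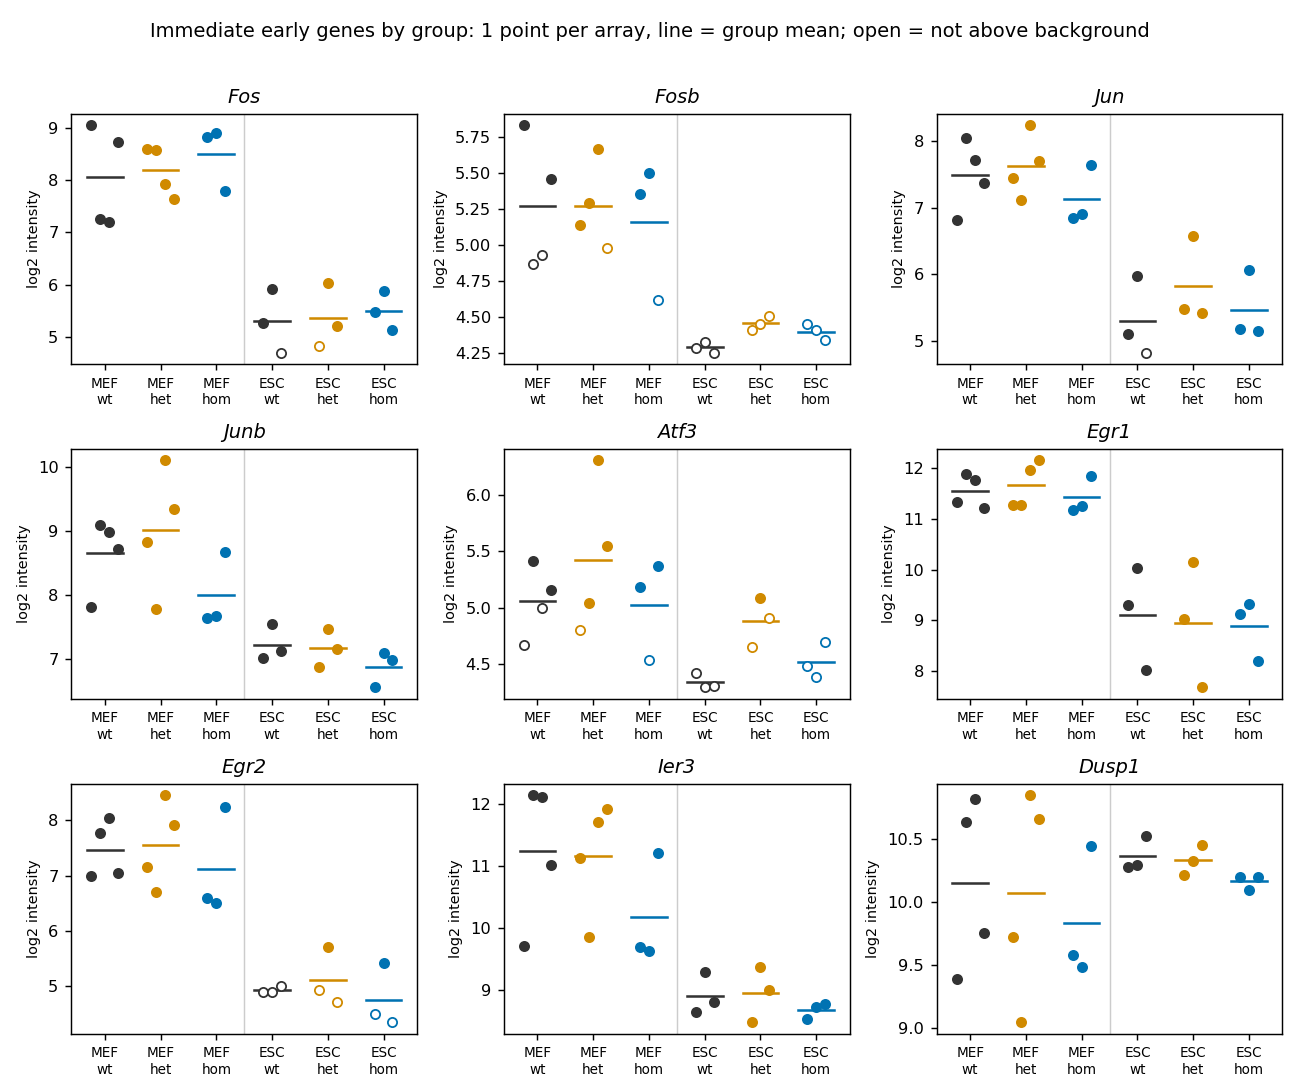
Log2 intensity of the 9 members above background on at least 3 arrays, on the scale of all 20 arrays normalized together (y axis, own range per panel), for the 6 groups of cell type and genotype (x axis). Each point is 1 array, open where not above background, and lines are group means; ESC points lie below all MEF points for 7 members, overlap for Atf3, and lie inside the MEF range for Dusp1.

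The first comparison was between the cell types. With all 20 arrays normalized together, most immediate early genes read lower in ESC than in MEF, and Dusp1 did not. In wild type, limma called 8 of 9 tested members lower in ESC at an adjusted p of 0.05, beside 27.2% of all 9977 genes. In het and in hom it called 7 of 9 lower, beside 26.7% and 26.7%. No member was called higher, beside 31.9%, 29.8% and 30% of genes. Of the 9, Fosb, Atf3 and Egr2 passed the filter only through MEF and so had to lean this way. Among the 6 members detected in both cell types, 5 were called lower in each genotype, beside 25.6%, 25.3% and 25.8% of the genes detected in both. The members had median differences of -2.18 for wt, -1.84 for het and -1.50 for hom, and the medians of all genes were 0.05, 0.03 and 0.02. Without the libraries labelled ESC het 1 and hom 1 the counts were 8, 7 and 5.

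Among AP-1 genes, Fos differed most. In wild type its mean was 8.06 ± 0.97 in MEF (SD, n = 4) and 5.29 ± 0.61 in ESC (n = 3), a difference of -2.77 ± 0.46 (SE; limma, adjusted p = 6.36e-05), or 6.82-fold lower. The difference was -2.84 in het and -3.02 in hom. Jun was lower by -2.18 ± 0.38 in wt (limma, adjusted p = 9.97e-05), -1.80 in het and -1.66 in hom. Fos and Jun were each above background on 2 of 3 ESC arrays in wt, so these wt differences rest partly on background values. Junb was lower by -1.42 ± 0.42 in wt (limma, adjusted p = 0.00775), -1.84 in het and -1.11 in hom. The hom value was near the threshold (limma, adjusted p = 0.0439) and missed it in 14 of 33 alternatives, among them leaving out the library labelled ESC hom 1 (adjusted p = 0.137) or MEF hom 3 (0.187). With the replicate block it was -0.97 (limma, adjusted p = 0.0748). Fosb was below background on every ESC array. With each ESC array set at the dimmest signal above background there, or at the probe's own if higher, Fosb was 1.19-fold lower in wt, 1.25-fold in het and 1.08-fold in hom. These are not strict lower bounds. Fosb was above background on 2 of 4 MEF arrays in wt, 3 of 4 in het and 2 of 3 in hom, and the others entered as measured. Its fitted difference was -0.99 in wt (limma, adjusted p = 0.00129). For hom, leaving out MEF hom 1 or hom 2 lifted Fosb's adjusted p to 0.0571 or 0.076. Atf3, read in the same way, was 1.03-fold lower in wt, also no strict bound, as 2 of 4 MEF arrays were above background. Its call in wt (limma, adjusted p = 0.0361) was lost in 11 of 32 alternatives (0.267 with the replicate block). It was not called in het (0.112) or hom (0.163).

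Egr1 had a mean of 11.55 ± 0.32 in MEF wt (SD, n = 4) and 9.11 ± 1.01 in ESC wt (n = 3), a difference of -2.44 ± 0.49 (SE; limma, adjusted p = 3.97e-04), with -2.73 in het and -2.54 in hom. Egr2 was at least 5.45-fold lower in wt, where no ESC array was above background. Its fitted differences were -2.54 in wt (limma, adjusted p = 1.20e-04), -2.45 in het and -2.36 in hom, with 1 of 3 ESC arrays measured in each of the latter. Ier3 was lower by -2.34 ± 0.55 in wt (limma, adjusted p = 0.00146), -2.20 in het and -1.50 in hom. With the replicate block, Ier3 in hom was -1.18 (limma, adjusted p = 0.134) and was not called. The hom call for Ier3 without it (limma, adjusted p = 0.0374) was lost when MEF hom 3 (0.185), any of the 3 ESC hom arrays (0.0675 to 0.0928) or both ESC libraries that go against their labels (0.101) were left out. Dusp1 differed by 0.21 in wt (95% interval -0.58 to 1.01; limma, adjusted p = 0.650), 0.26 in het and 0.33 in hom.

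**Figure D2:**
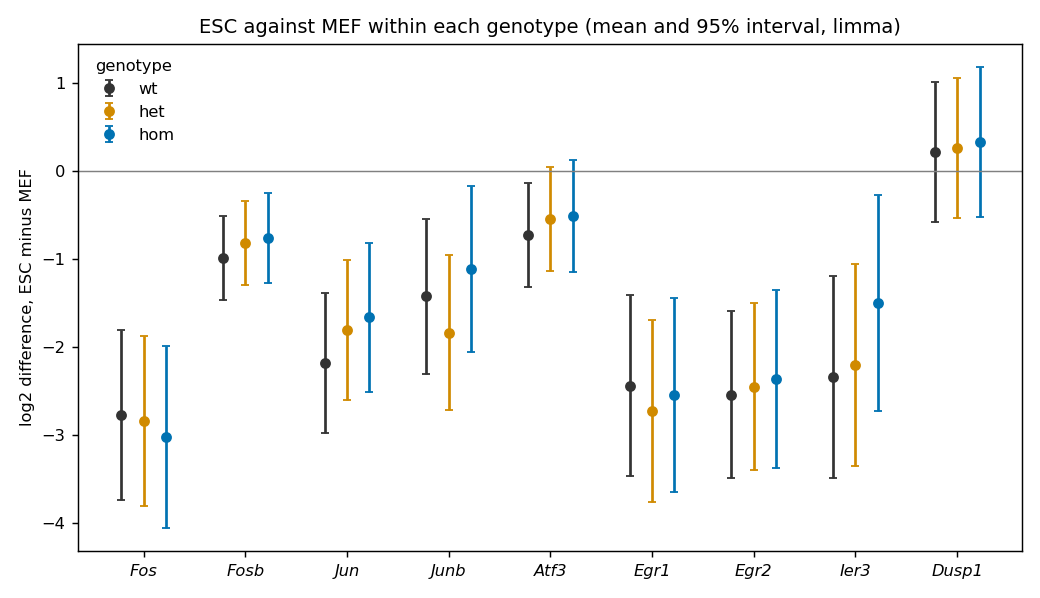
Log2 difference of ESC minus MEF (y axis) for 9 members (x axis) in wt, het and hom. Points are limma estimates over all 20 arrays and bars their 95% intervals; Fos lies lowest at -2.77 to -3.02, and all 3 intervals of Dusp1 span 0.

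Array by array, every ESC value lay below every MEF value for Fos, Fosb, Jun, Junb, Egr1, Egr2 and Ier3, as for 18.6% of all genes. Fosb was not above background on any ESC array or on 4 MEF arrays, so its order there ranks background values, and Egr2 passed the filter only through MEF. Of the 6 members detected in both cell types, 5 separated in this way, beside 18.2% of such genes. For Jun the gap was narrow: the brightest ESC array read 6.57 and the dimmest MEF array 6.81. For Junb it was 7.55 against 7.64. Ordered by group mean, the 3 MEF groups came before the 3 ESC groups for all 7 of these genes, which follows from that separation. Within MEF, neighbouring group means differed by less than either SD for Fos, Fosb, Jun, Egr1 and Egr2. Hom lay below its neighbour by more than either SD for Junb (8.0 ± 0.59 against 8.65 ± 0.57 in wt) and Ier3 (10.18 ± 0.90 against 11.15 ± 0.93 in het), differences that limma did not call. Within ESC, neighbouring group means for Fos, Jun and Egr1 differed by less than either SD. For Dusp1 the 3 ESC groups (10.16 to 10.36) came above MEF wt at 10.15, het at 10.07 and hom at 9.83, a span smaller than the SD of 0.68 within MEF wt.

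Slide and cell type were nearly confounded, and no slide held ESC and MEF of one genotype. The link is MEF wt 4, which shared slide 3 with 5 ESC arrays. There Fos read 8.74 in MEF wt 4 and 5.12 to 6.03 in the 5 ESC arrays. Egr1 read 11.22 against 7.67 to 10.14, Jun 7.38 against 5.16 to 6.57, and Ier3 11.02 against 8.53 to 9.38. Junb read 8.72 against 6.56 to 7.48, and Egr2 7.05 against 4.34 to 5.70. Dusp1 read 9.75 against 10.10 to 10.45. With slide as a fixed block the comparison rests on that array in each genotype. In wt it also rests on ESC het 1, which alone ties ESC wt to slide 3 and goes against its label. In hom it also rests on MEF het 4, the only other MEF array on a slide with MEF hom. With that block, limma called 0 members in wt, 2 in het and 2 in hom (Fos and Fosb), beside 5.95%, 16.1% and 20.3% of genes called lower. Fos kept a difference of -2.66 in wt (limma, adjusted p = 0.0757), -3.65 in het and -5.00 in hom, while Ier3 in hom turned to 0.34 ± 1.25 (limma, adjusted p = 0.848).

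The second pattern lay among MEF of any genotype. The arrays wt 2, wt 3, het 3, het 4 and hom 3 were the 5 highest for Jun, Egr1, Egr2, Ier3 and Dusp1, and the 5 lowest for Fos. Fos and Jun, partners in AP-1, were therefore inversely ordered: Pearson's r between them was -0.83 over the 11 arrays. Against Fos, r was -0.89 for Ier3, -0.89 for Dusp1, -0.86 for Egr1, -0.83 for Egr2, -0.70 for Junb and -0.52 for Atf3, and 0.72 for Fosb. Among the others, Jun and Junb had an r of 0.94 and Egr2 and Dusp1 one of 0.93. These are descriptions over arrays that share slides and a normalization, with no test. The share of all genes that set these 5 arrays fully apart was not counted. In ESC, over 9 arrays, Fos had an r of 0.85 with Jun and 0.77 with Egr1, while Dusp1 had an r of -0.40 with Fos, -0.29 with Jun and -0.45 with Egr1.

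**Figure D3:**
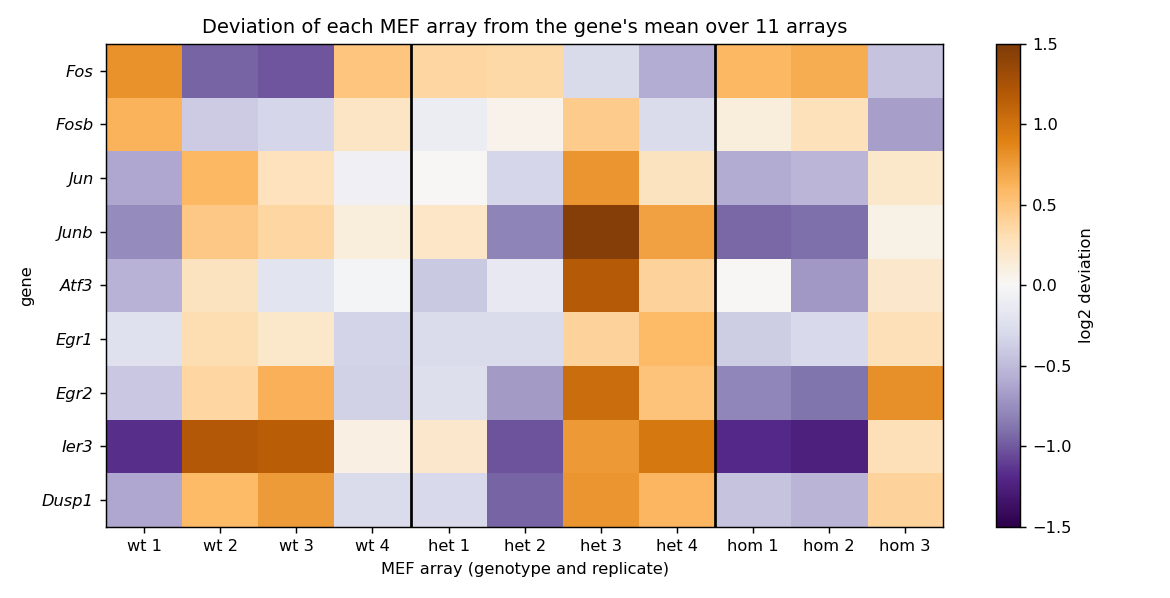
Deviation of each MEF array (x axis, genotype and replicate) from the gene's mean over 11 arrays, in log2 units (colour, -1.5 to 1.5), for 9 members (y axis). Arrays wt 2, wt 3, het 3, het 4 and hom 3 are below the mean for Fos and above it for Jun, Egr1, Egr2, Ier3 and Dusp1.

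The same 5 arrays stood apart from the other 6 over the whole transcriptome. The first principal component of the MEF arrays, computed without the members and the listed pathway genes, held 67.6% of the variance and placed them at 32.5 to 52.6, and the other 6 at -41.1 to -32.5. Its r was -0.95 with Fos, 0.96 with Dusp1, 0.95 with Egr1, 0.90 with Egr2, 0.87 with Ier3, 0.86 with Jun, 0.77 with Junb and 0.65 with Atf3. The median absolute r of all 8999 genes was 0.77, so that a strong r with this component was common. The share of genes with a larger absolute r than a member's ran from 12.3% for Dusp1 to 67.4% for Fosb. Markers of other cells moved with it too. The summed level of 5 epithelial markers was 1040 to 3914 on the 5 arrays and 162 to 302 on the other 6. That of 6 skeletal muscle markers was 2271 to 4669 against 711 to 961, and that of 11 heat shock genes was 13838 to 15340 against 10047 to 10860. That of 11 macrophage markers was 817 to 1463 against 1845 to 4720, with Ctss at background on every MEF array. Per array, 3 to 4 epithelial markers were above background on the 5 arrays and 2 to 3 on the others, 5 to 6 muscle markers against 4, and 6 to 10 macrophage markers against 10. The summed fibroblast markers overlapped, at 16749 to 23149 against 18300 to 20256. Epcam was not above background on any MEF array. Of the 11 heat shock genes, 9 to 10 were above background on the 5 arrays and 8 to 9 on the others. Dnaja1 was above background on 0 MEF arrays, Hspa1a on 5 of 11 and Hspa1b on 6 of 11. The part of these cells or of heat shock in the members' levels was not tested.

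The 5 genes most like Fos over the 11 MEF arrays were Add3 (r = 0.985), Hgf, Tox, Zfp521 and Arap1. Fosb ranked 2626th of 8998 genes by r with Fos, and all other members had a negative r. The 5 most like Egr1 were Ddx27 (r = 0.977), Rnf4, Prpf31, Ccdc137 and Rxylt1, with Egr2 ranked 663rd and Dusp1 705th. For Atf3 they were Rnf40 (r = 0.958), Mad1l1, Arid1a, Ice1 and Zfp335, with Junb ranked 410th.

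The third comparison, between genotypes, gave no call among the members. In MEF, limma called 0 of 9 in hom against wt, het against wt and hom against het, beside 0.0111% of genes in each. At an unadjusted p below 0.05 it also found 0 members in each, beside 2.55%, 1.48% and 1.6% of probes. Hom MEF read lower than wt for 8 of 9 members, with a median of -0.30, but every 95% interval included 0. Ier3 differed by -1.03 (95% interval -2.47 to 0.40), Junb by -0.64 (-1.74 to 0.45), Egr2 by -0.35 (-1.46 to 0.76) and Egr1 by -0.12 (-0.70 to 0.45). Fos differed by 0.44 (-0.64 to 1.51). The medians were 0.12 in het against wt and -0.42 in hom against het, with all-gene medians within 0.02 of 0 in the 3 comparisons. Each genotype held arrays of both kinds described above: 2 of 4 in wt, 2 of 4 in het and 1 of 3 in hom were of the low-Fos kind.

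Within slides, het against wt MEF on slide 1 (3 arrays each) gave 0 calls and a median of 0.07. On slide 4, hom 1 and hom 2 against het 4 gave 7 of 7 tested members called, beside 63.5% of genes. Fos was higher by 1.21 and the other 6 were lower, from -2.16 for Ier3 to -0.81 for Jun. In that fit het 4 is 1 low-Fos array set against 2 of the other kind, and the spread comes from hom 1 and hom 2 alone. Hom against wt MEF shared no slide. With slide as a fixed block its median was -1.07, with 0 calls. That value joins the slide 4 difference, with het 4 as its only het array, to het against wt on slide 1. MEF wt 4 and hom 3, each the only MEF array of its slide, did not bear on it.

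In ESC, limma called 0 of 6 members in each genotype comparison, beside 0% of genes, and at an unadjusted p below 0.05 found 0 members, beside 12.1% of probes in hom against wt, 4.54% in het against wt and 3.64% in hom against het. Dusp1 had the narrowest interval, -0.20 in hom against wt (95% interval -0.44 to 0.04), and Egr1 the widest, -0.24 (-1.69 to 1.20). Here the replicate numbers paired the cultures, as described next. With replicate number as a block, 0 of 6 members were called, beside 4.27%, 0.276% and 0% of genes, and 2, 1 and 2 members had an unadjusted p below 0.05, beside 25.2%, 13.7% and 10.8% of probes. Junb in hom against wt came closest, at -0.35 ± 0.12 (SE; limma, adjusted p = 0.103), followed by Jun in het against wt at 0.48 ± 0.14 (0.162) and Dusp1 in hom against wt at -0.20 ± 0.09 (0.179). Within slides, the median was -0.15 for het 1 against wt on slide 2 and -0.33 for hom against het 2 and het 3 on slide 3, with 0 calls. Het 1 is one of the libraries that go against their labels. Without both, 0 members were called in each ESC comparison, with or without the block.

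**Figure D4:**
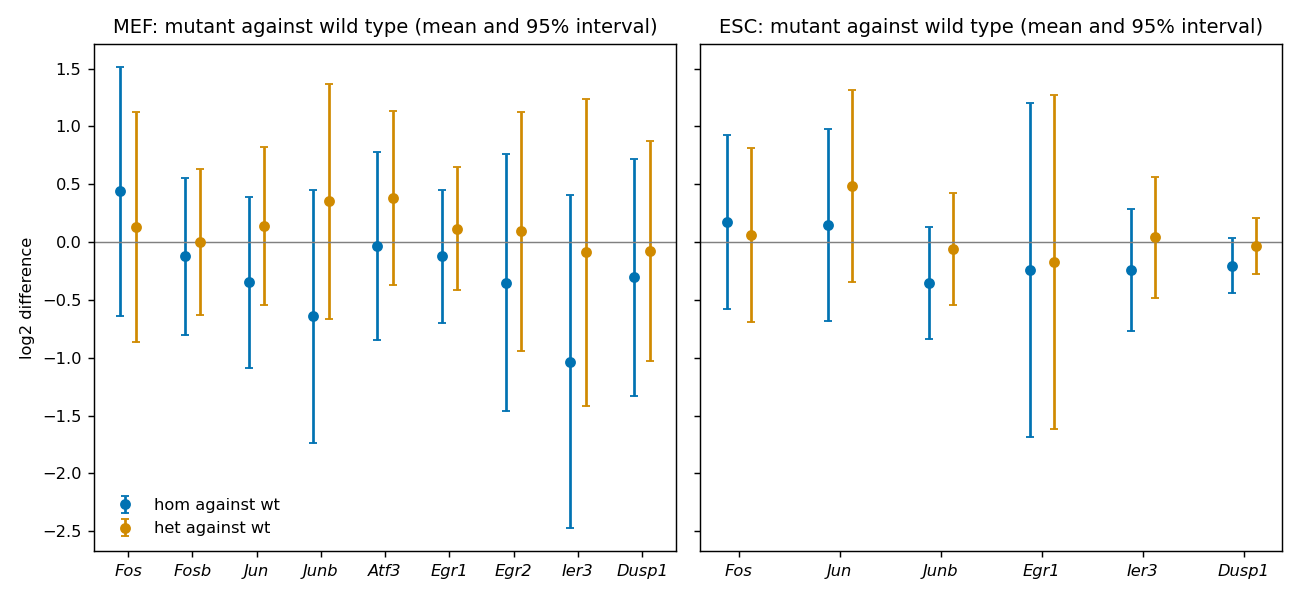
Log2 difference of hom and of het against wt (y axis) for the tested members (x axis), in MEF (left) and ESC (right). Points are limma estimates and bars their 95% intervals, all of which include 0; that of Ier3 in MEF hom runs from -2.47 to 0.40 and that of Egr1 in ESC hom from -1.69 to 1.20.

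The response to genotype was not shown to differ between cell types. For hom against wt in ESC minus the same in MEF, limma called 0 of 9 members, beside 0% of genes and 5.2% of probes at an unadjusted p below 0.05. For het against wt it called 0 of 9, beside 0% and 2.68%. No member had an unadjusted p below 0.05 in either. The estimates for hom ran from -0.25 for Fos to 0.83 for Ier3 (95% interval -0.85 to 2.51).

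The fourth pattern followed the replicate number in ESC. Same-numbered cultures deviated together: over all tested probes, r was 0.37 to 0.77 in 9 of 9 same-numbered pairs and -0.62 to 0.20 in the others. With genotype in the fit, limma's F test across the 3 numbers, chosen after seeing this, called 5 of 6 members, beside 23.5% of genes. Egr1 had an adjusted p of 6.61e-05 and was 1.94 higher in number 2 than in number 3. Jun had 4.75e-04 and 1.01, and Fos 0.00952 and 0.86. Junb (limma, adjusted p = 0.0149) and Ier3 (0.0197) were also called, and Dusp1 was not (0.297). Number 2 was the highest in all 3 genotypes for Fos, Jun, Junb and Egr1, as for 13.7% of genes, and number 3 the lowest in all 3 for Egr1 and Jun, as for 8.99% of genes.

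**Figure D5:**
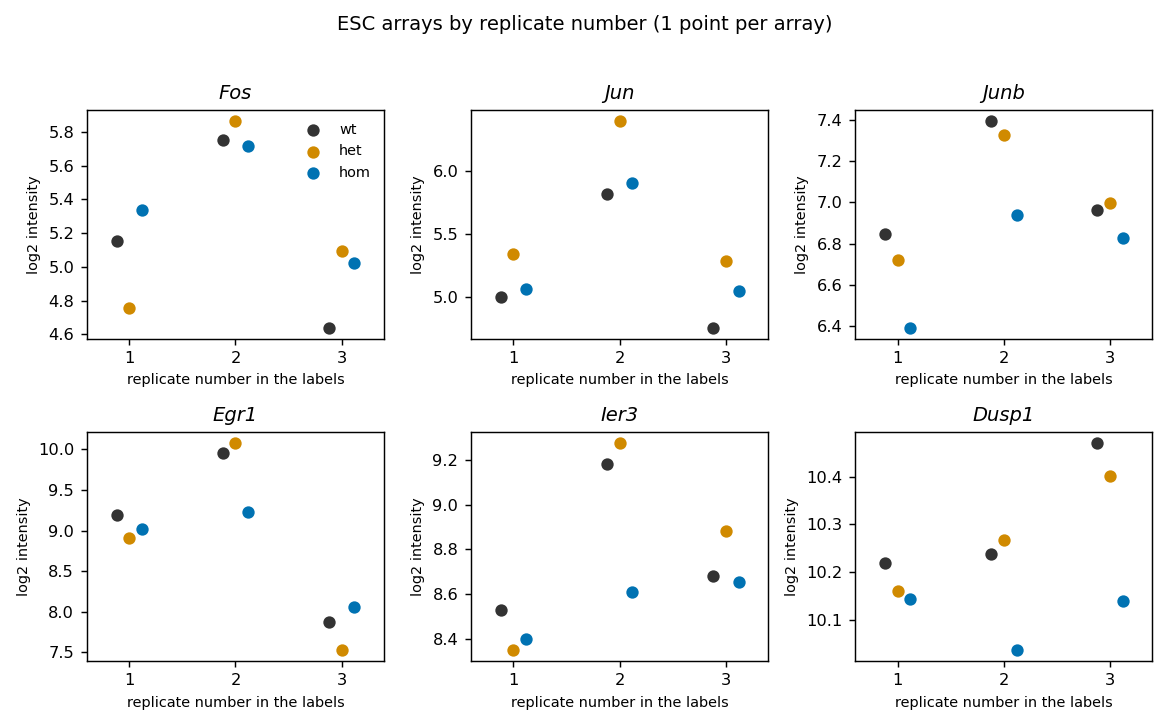
Log2 intensity in ESC (y axis, own range per panel) by replicate number in the labels (x axis), for the 6 members tested in ESC, 1 point per array, coloured by genotype. Number 2 is the highest in each genotype for Fos, Jun, Junb and Egr1, and Egr1 falls to 7.52 to 8.06 in number 3.

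Fibroblast and macrophage markers moved with these numbers. The summed level of fibroblast markers was 2606, 4470 and 2945 in number 2 of wt, het and hom, and 500 to 975 on the other 6 ESC arrays, against 16749 to 23149 in MEF. Of the 7 markers, 3 to 5 were detected per ESC array, and Col3a1 and Postn were at background on all 9. The summed macrophage markers were also highest in number 2 of each genotype, at 2580, 2986 and 3082, against 1668 to 2613 on the other 6 arrays. Of the 11 macrophage markers, 2, 4 and 5 were above background in number 2 of wt, het and hom and 1 to 3 on the others, and Adgre1, C1qa, Cd14, Ctss and Tyrobp were at background on all 9. Laptm5 was above background on all 9 and read 2.04 higher in ESC wt than in MEF wt (log2). On arrays where it was the only marker above background, the sum was still 1668 to 2138. The macrophage sums of ESC and MEF are therefore not comparable. The part of fibroblasts or macrophages in the ESC values was not tested.

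Genes around the members were read from 6 lists of pathway genes, in ESC against MEF. The counts stand beside 27.2% of all genes called lower and 31.9% called higher in wt. Some lists, such as heat shock with 3 of 10 lower, were near the share of all genes. Listed genes that passed the filter through 1 cell type only had to lean its way, and the counts include them. Of those named, Arc was above background on 1 of 11 MEF arrays, and Pdgfrb, Nab2 and Dusp8 on 1, 0 and 2 of 9 ESC arrays. Nr4a2, Maff, Hspa1a and Hspa1b, counted as lower, were above background on no ESC array. Of 23 tested other immediate early genes, 4 were called higher in ESC wt and 11 lower (median -0.91). The synaptic regulator Arc was higher by 1.89 ± 0.17 (SE; limma, adjusted p = 4.46e-08) and the survival factor Mcl1 by 1.42. The NF-kappa-B regulator Nfkbiz was lower by -3.25 and the mRNA decay factor Zfp36 by -1.63. Of 15 genes upstream, 2 were higher and 8 lower (median -0.75). The ternary complex factor Elk4 was lower by -1.83, and the receptors Egfr by -2.99, Pdgfrb by -2.21 and Fgfr2 by -1.55. Of 12 feedback genes, 2 were higher and 5 lower (median -0.36), among them the Egr corepressors Nab1 at -2.26 and Nab2 at -1.36 and the phosphatase Dusp8 at -1.99, with Ier5l at -0.97.

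Of 9 AP-1 partners and Atf relatives, 1 was higher and 5 lower (median -0.88), with Jdp2 at -2.92, Cebpb at -2.88, Atf5 at -3.25 and Atf7 at -0.88. Of 12 reported AP-1 targets, 0 were higher and 6 lower (median -1.16), with Vegfa at -1.69, Mmp9 at -1.09, Cd44 at -2.88 and Timp1 at -1.77. Heat shock genes went both ways, with 5 of 10 higher and 3 lower (median 0.25): Hsp90aa1 at 2.46, Hspe1 at 1.12 and Hsph1 at 1.08, and the co-chaperone Bag3 at -2.19. In het the lower counts in the same order of lists were 10, 7, 4, 5, 4 and 3, and in hom 10, 7, 4, 5, 1 and 3, beside 26.7% of all genes in each. No gene of these lists or of the marker lists was called between genotypes without the block. With the replicate block, 3 were called in ESC hom against wt: Arc at -0.67 ± 0.14 (SE; limma, adjusted p = 0.0281), the naive ESC marker Esrrb at -0.65 (0.0223) and the macrophage marker Lyz2 at 1.05 (0.0343). The 12 AP-1 targets all read lower in MEF hom than in wt (median -0.34) and than in het (median -0.45), none of them called. In the same 2 comparisons all 10 tested macrophage markers (medians -0.26 and -0.37) and all 4 tested epithelial markers (medians -0.63 and -0.68) also read lower, none of them called. The mix of low-Fos arrays in hom also differed from that in wt and het, as given above. Genes moved together over the MEF arrays, with a median absolute r of 0.77 with the first principal component. Genes of a list that read the same way are therefore not separate results. The share of all genes that read lower in these comparisons was not counted. The part of these cells and of this mix in the targets' values was not tested.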

How the data were processed

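Illumina bead arrays of 11 MEF and 9 ESC samples were analysed from the deposited non-normalized table, which, per the file headers, lists an average bead intensity on a linear scale with its standard error, the number of beads and a detection p-value for each probe on each array. The intensity values of the series matrix, deposited already normalized, served as an alternative. BeadStudio and limma are named in the submitters' processing notes, with no version. Array groups follow the labels. In R 4.3.3 with limma 3.58.1, neqc corrected background from the detection p-values (offset 16) and quantile normalized within MEF, within ESC, or over all 20 arrays. Probes with a detection p below 0.01 on at least 3 arrays were tested: 15125 in MEF (8 residual degrees of freedom), 14502 in ESC (6) and 17067 together (14). lmFit and eBayes with a trend were used, with Benjamini-Hochberg adjustment over all probes tested and a threshold of 0.05. The brightest probe stands for a gene. Replicate numbers paired the samples in ESC, where every same-numbered pair had a correlation of deviations above 0.1 (lowest 0.37), and not in MEF. The members, lists and tests were chosen with earlier results of these data known. All members are named. From each list, up to 4 genes with the smallest p in wt ESC against MEF are named, plus any called between genotypes. The fits were tested on simulated data, and figures drawn with matplotlib 3.10.9. The precision is limited by the number of arrays.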

Additional observations from a re-analysis of the deposited data

How the results depend on the processing

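The alternatives changed background correction, normalization, filter, source table, probe choice, slide, replicate block, array weights, threshold or the arrays used. Of 302 median member differences under an alternative, 285 stayed within the spread between arrays and 17 moved, and of 313 counts of members called, 308 stayed and 5 moved. In ESC against MEF, the medians for wt, het and hom were -1.29, -1.45 and -0.96 with no background correction and -1.26, -1.41 and -0.96 from the series matrix. With slide as a fixed block they were -1.40, -1.46 and -0.78, with 0, 2 and 2 members called, and the hom interaction median was 0.64. With no filter on dim probes the wt median was -1.80, and with array weights the hom median was -1.03. At an adjusted p of 0.01, 4 members were called in hom. Leaving out 1 array at a time, the het median ran from -2.25 to -1.59 and the hom median from -1.78 to -1.01, and the members called were 7 to 8 in wt and het and 5 to 7 in hom. Ier3 in hom reversed, to 0.34, with slide as a fixed block. In MEF, the slide block gave medians of -1.07 for hom against wt and -0.92 for hom against het, and within slide 4 the latter was -1.08 with 7 members called. In MEF, hom against het with the slide block rests on slide 4 alone, where hom 1 and hom 2 stood against het 4, a low-Fos array. Hom against wt joins that difference to het against wt on slide 1. These MEF shifts therefore rest on the same arrays and are not separate results. The cause of the shifts was not tested. Estimation of the array weights gave a convergence warning in some fits. With them Dusp1 was called higher in ESC, by 0.68 in het (limma, adjusted p = 0.0351) and 0.62 in hom (0.0222). With the replicate block, 7, 7 and 5 members were called in ESC against MEF, and 0 in each genotype comparison. In MEF the numbers did not pair the samples (7 of 10 same-numbered pairs had a correlation above 0.1), and the block left medians of -0.27, 0.12 and -0.38. Of 1691 genotype and interaction values under alternatives, 138 changed sign and 7 passed the threshold, all 7 within slide 4. Blocks within slides, the fit without the libraries labelled ESC het 1 and hom 1, and the test on ESC replicate number were added after seeing the data. Fosb, Atf3 and Egr2 were near or below background in ESC, so their fitted differences rest partly on background values, and Ier2 was not tested. Fos and Jun were above background on 7 and 8 of 9 ESC arrays, so their ESC values also hold some background readings.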

Other observations

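The members' spread differed between the cell types gene by gene. Dusp1 had an SD of 0.63 over the 11 MEF arrays, larger than that of 89.6% of genes, and of 0.14 over the 9 ESC arrays, larger than that of 13.1%. Egr1 was the reverse, with an SD of 0.35 in MEF, at the 61.8th percentile, and 0.89 in ESC, at the 98.9th. Ier3 and Junb were at the 97.4th and 94.4th percentiles in MEF and at the 79.6th and 75.6th in ESC. These spreads hold all genotypes, and their difference between cell types was not tested.

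In ESC the first principal component, computed without the members, held 42.2% of the variance and placed number 2 of each genotype highest, at 17.6 to 37.1, with the other 6 arrays at -21.6 to -6.17. Its r over 9 arrays was 0.94 with Jun, 0.86 with Fos, 0.73 with Egr1 and -0.43 with Dusp1, beside a median absolute r of 0.46 over all genes.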
